A study of Mus musculus with 4 samples.

Results

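Notch pathway genes were followed through the embryonic cortex: the receptors Notch1, Notch2 and Notch3, the ligands Dll1, Dll3, Jag1 and Jag2, the Fringe glycosyltransferases Lfng and Mfng, and the DNA-binding partner Rbpj. They were chosen by gene symbol, with earlier results of these data known. All 10 were present among the 13289 genes of the count table and passed the filter on low counts. The samples were cerebral cortex of mouse embryos at embryonic day 15 (E15), as 2 libraries titled WT, called control here, and 2 libraries titled Lhx2cKO, called Lhx2 cKO here, a conditional knockout of the LIM-homeodomain gene Lhx2. The labels name neither the Cre driver, the allele, the strain, the sex nor the litter of the embryos. They also do not say whether an RNA sample came from 1 embryo or a pool. The p-values therefore rest on the spread between these 4 samples, which may in part be technical. For each gene that spread was estimated largely from other genes.

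Notch signalling passes between touching cells. A Delta-like (Dll) or Jagged (Jag) ligand on one cell binds a Notch receptor on its neighbour, the receptor is cut in the membrane, and its freed intracellular domain joins Rbpj in the nucleus to switch on Hes and Hey repressor genes. In the developing cortex this keeps radial glia, the stem cells of the ventricular zone, from differentiating, while newborn neurons and intermediate progenitors present the ligand. Fringe enzymes add a sugar to O-fucose on the receptor's extracellular repeats, and Lfng and Mfng thereby favour Delta-like over Jagged ligands. Lhx2 is expressed in cortical progenitors, and the comparison asks which transcripts differ when it is targeted.

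Total counts ranged from 22294237 to 24609627 per library, and 3 counts, taken as the floor of detection, corresponded to 0.122 to 0.135 CPM, the counts scaled to a common library size. Every member lay far above that floor, with 398 to 2492 counts in each library. The targeted gene, Lhx2, had 315.5 and 286.6 CPM in the controls against 238.9 and 247.2 CPM in the Lhx2 cKO libraries, so 80.7% was left on average, and it passed the test (log2 fold change -0.31, SE 0.0976, adjusted p 0.0191). Lhx2 did not pass without control 1 (adjusted p 0.176), without Lhx2 cKO 1 (0.102) or without Lhx2 cKO 2 (0.0538). Without the allele it is not known which part of the transcript the conditional deletion removes. The samples are bulk tissue, in which fewer cells of a type and less RNA per cell cannot be told apart.

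The promoter sequence of 4 of the members whose level changed is shown here because Rbpj, the homeodomain of Lhx2 and the proneural factors each bind short DNA words that can be looked for near a start site. The windows come from RefSeq on GRCm38.p6, are written 5′ to 3′ on the strand of the gene, and start 250 bases before the annotated start. Bases that lie in an annotated exon of the same gene are not printed. Capitals mark matches, on either strand, to TGGGAA (the core word of Rbpj), TAATTA (a word bound by LIM-homeodomain proteins), and CAGCTG and CAGATG (E-boxes bound by proneural factors). Overlaps between the words were allowed.
Notch1, chr2:26503825-26504072, minus strand: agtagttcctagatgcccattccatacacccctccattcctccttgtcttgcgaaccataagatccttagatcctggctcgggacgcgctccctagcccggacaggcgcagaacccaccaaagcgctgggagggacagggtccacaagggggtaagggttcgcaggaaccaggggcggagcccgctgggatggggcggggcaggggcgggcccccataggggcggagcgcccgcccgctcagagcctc
Dll1, chr17:15376933-15377182, minus strand: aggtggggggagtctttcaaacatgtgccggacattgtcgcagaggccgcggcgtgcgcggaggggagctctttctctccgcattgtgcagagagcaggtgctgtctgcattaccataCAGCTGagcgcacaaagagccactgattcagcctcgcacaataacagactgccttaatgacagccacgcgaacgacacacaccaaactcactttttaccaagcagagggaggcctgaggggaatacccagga
Lfng, chr5:140607091-140607319, plus strand: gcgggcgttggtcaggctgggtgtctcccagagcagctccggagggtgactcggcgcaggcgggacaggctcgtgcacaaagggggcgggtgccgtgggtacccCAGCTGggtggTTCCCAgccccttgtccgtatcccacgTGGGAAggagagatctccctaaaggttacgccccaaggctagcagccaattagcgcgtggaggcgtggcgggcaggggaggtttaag
Rbpj, chr5:53590096-53590213, plus strand: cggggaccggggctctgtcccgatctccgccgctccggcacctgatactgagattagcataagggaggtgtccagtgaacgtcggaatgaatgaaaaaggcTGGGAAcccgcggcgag
The Lfng window held TGGGAA once on each strand, with matches beginning 108 and 135 bases before the start, and a CAGCTG beginning 146 bases before it. The outer of the 2 overlapping Rbpj windows held 2 matches to its own factor's core word, of which the one beginning 149 bases before the start is printed. Dll1 had a CAGCTG 132 bases before its outer start, in a window that lies in an exon of A930024N18Rik on the other strand, and the Notch1 window held 0 of the 4 words.

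RefSeq windows were found for 9 of the 10 members, 11 windows in all, since Dll1 and Rbpj have more than one start. TGGGAA on either strand was in 3 of these windows, which belong to 2 members, Lfng and Rbpj, since both overlapping Rbpj windows counted. It was in 21.6% of all 32851 windows of the same length and in 20.2% of those of the genes tested. CAGCTG was in 4 of the 11, those of Dll1, Dll3, Jag1 and Lfng, against 13.0% of all windows and 12.1% of those of the genes tested. TAATTA and CAGATG were in 0 of the 11, against 4.84% and 14.4% of all windows and 2.41% and 9.95% of those of the genes tested. These matches describe only the letters in the windows.

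Of the 10 members, 6 passed the test at an adjusted p under 0.05 in edgeR's quasi-likelihood test. Notch1, Dll1, Mfng and Rbpj fell and Jag1 and Lfng rose, so that both the ligands and the Fringe enzymes held members called in opposite directions. Over all genes tested 20.8% were called, 11.6% as higher and 9.17% as lower. The median log2 fold change was -0.24 over the members and 0.003 over all genes. For 9 of the 10 members, all but Notch2, the control and Lhx2 cKO values were fully separate, against 59.3% of all genes.

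**Figure D1:**
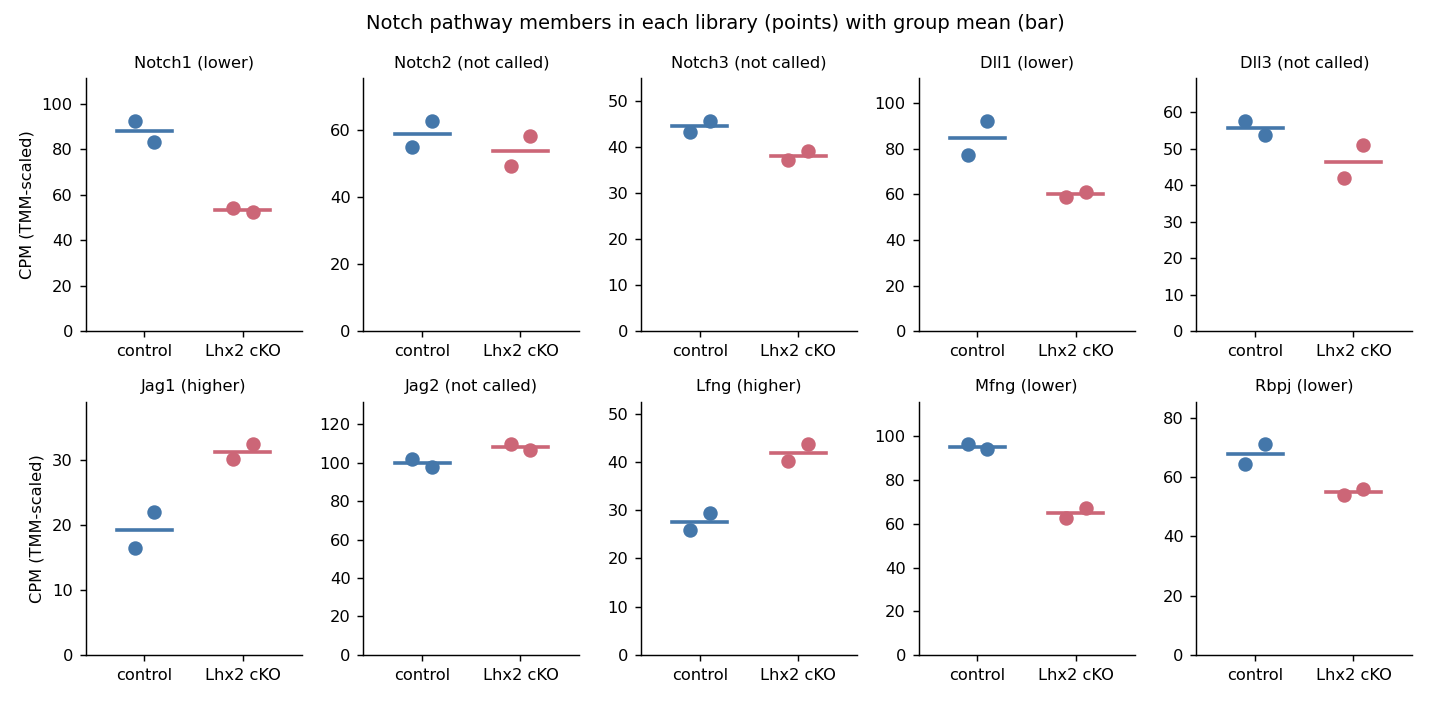
Level of each member in CPM scaled with TMM (vertical axis, from 0) in the 2 control and 2 Lhx2 cKO libraries (points), with the group mean as a bar and the outcome of the edgeR test in the title. Notch1, Dll1, Mfng and Rbpj sat lower in both Lhx2 cKO libraries and Jag1 and Lfng higher, while the points of Notch2 overlapped.

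Among the receptors, Notch1 (ENSMUSG00000026923.16), the main Notch receptor of cortical radial glia, changed most. Control libraries 1 and 2 held 92.5 and 83.3 CPM of Notch1, and Lhx2 cKO libraries 1 and 2 held 54.1 and 52.4 CPM. Both Lhx2 cKO libraries lay well below both controls, and they differed from each other by 3.34% of their mean, against 10.5% between the controls. The means were 87.9 ± 6.51 CPM (SD, n = 2) and 53.3 ± 1.26 CPM (SD, n = 2), that is 60.6% of control. On the log2 scale Notch1 fell by 0.72 (SE 0.0996, adjusted p 3.92e-07), and 354 of the 13288 genes tested had a lower value. Its exons share 1068 bases, or 7.50% of their length, with 0610009E02Rik and 414 bases with Gm13568, both on the opposite strand, and without stated use of strand those reads cannot be told apart.

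Notch2 (ENSMUSG00000027878.12), a receptor of the same family also found in progenitors, gave 55.1 and 62.8 CPM in control and 49.4 and 58.1 CPM in Lhx2 cKO. The second library of each group was the higher one and the groups overlapped. Its log2 fold change was -0.13 with a 95% interval from -0.35 to 0.08 (adjusted p 0.403). Notch3 (ENSMUSG00000038146.9), which is expressed by pericytes and smooth muscle as well as progenitors, gave 43.4 and 45.8 CPM in control and 37.2 and 39.2 CPM in Lhx2 cKO. The groups did not overlap, and the replicates lay within 5.36% of each other in either group. The log2 fold change of Notch3 was -0.22 (interval -0.43 to -0.01), and it did not pass the test over all genes (adjusted p 0.128). The exons of Notch2 share 5.02% of their length with Gm42820 on the same strand, and those of Notch3 share 6.03% with the antisense gene Gm17276, so reads there cannot be told apart either. Of 8 pericyte and smooth muscle genes measured, Notch3 included, 2 were called higher, Cspg4 and Vtn, and 1 lower, Rgs5, and their summed level was 259 to 278 CPM in control and 258 to 273 CPM in Lhx2 cKO.

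Beside Notch1, most of the cycling genes fell, while the radial glia genes were mixed. The 11 radial glia genes measured summed to 851 to 918 CPM in control and 809 to 836 CPM in Lhx2 cKO, with 5 called lower, among them Pax6, Sox9 and Emx2, 1 called higher, Slc1a3, a name given after its value was seen, and 5 not called. For the 10 cycling genes the sums were 406 to 454 CPM and 271 to 273 CPM, with 8 called lower, among them Mki67 (log2 fold change -0.87), Top2a (-0.86) and Cdk1 (-0.96). Hes1, Hes5 and Fabp7, among the radial glia genes not called, are also counted with the pathway targets below. None of the listed marker genes measured was at 0 counts in any library. The part of these cells in the fall of Notch1 was not tested.

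Among the 4 ligands Dll1 fell, Jag1 rose, and Dll3 and Jag2 did not pass the test. Dll1 (ENSMUSG00000014773.14), the Delta-like ligand presented by newborn neurons and intermediate progenitors, was at 77.3 and 92.3 CPM in control against 59.0 and 61.2 CPM in Lhx2 cKO. Both Lhx2 cKO libraries were below the lower control, and the controls differed from each other by 17.7% of their mean. The mean of the controls was 84.8 ± 10.6 CPM and that of Lhx2 cKO 60.1 ± 1.54 CPM (SD, n = 2), and Dll1 fell by 0.50 on the log2 scale (SE 0.102, adjusted p 0.000289). It was -0.36 without control 2, the higher control, and -0.63 without control 1, and passed the test in both. The exons of A930024N18Rik, a long noncoding RNA on the opposite strand, cover 867 bases or 20.5% of the exons of Dll1, so that its counts are uncertain to that extent.

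Dll3 (ENSMUSG00000003436.12), a divergent Delta-like protein that does not activate receptors on neighbouring cells, gave 57.8 and 53.7 CPM in control and 42.0 and 51.1 CPM in Lhx2 cKO. The second Lhx2 cKO library came close to the lower control. The log2 fold change was -0.26 (interval -0.47 to -0.05, adjusted p 0.0754), short of the threshold. Without Lhx2 cKO 2 it was -0.41 with an adjusted p of 0.0215, and without Lhx2 cKO 1 it was -0.13 with an adjusted p of 0.561, so 1 library decides the outcome for Dll3.

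Jag1 (ENSMUSG00000027276.8), a Jagged ligand of progenitors and of blood vessels, had the lowest level per length of the 10 members in control and the largest estimated rise. It was measured at 16.4 and 21.97 CPM in control and at 30.2 and 32.5 CPM in Lhx2 cKO. Both Lhx2 cKO libraries were above both controls, although the controls themselves differed by 28.9% of their mean, from 398 and 549 counts. The means were 19.2 ± 3.93 and 31.3 ± 1.61 CPM (SD, n = 2), which makes Jag1 1.63-fold higher (log2 fold change 0.71, SE 0.129, adjusted p 6.13e-05). The estimate ranged from 0.50 without control 1 to 0.93 without control 2, with an adjusted p of at most 0.0133. Jag2 (ENSMUSG00000002799.7), the other Jagged ligand, gave 101.9 and 97.5 CPM in control and 109.5 and 106.8 CPM in Lhx2 cKO, with replicates within 4.41% of each other. Its log2 fold change was 0.12 (interval -0.07 to 0.31, adjusted p 0.423), and the top of that interval lies below the interval of Jag1, 0.45 to 0.97.

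Endothelial genes rose beside Jag1. Of 10 such genes 8 were called higher and 0 lower, with Cldn5 at a log2 fold change of 0.70, Cdh5 at 0.72 and Slco1c1 at 0.83, and their sum was 195 to 239 CPM in control and 299 to 350 CPM in Lhx2 cKO. The part of endothelial cells in the rise of Jag1 was not tested. Beside Dll1 and Mfng, 5 of 8 genes of intermediate progenitors were called lower, among them Eomes (log2 fold change -1.66) and Mfap4 (-0.85), with 0 called higher and sums of 821 to 829 CPM in control and 497 to 512 CPM in Lhx2 cKO. Their part in the fall of Dll1 or Mfng was not tested either. The 10 neuronal genes summed to 5228 to 5307 CPM in control and 5344 to 5616 CPM in Lhx2 cKO, with Stmn2 called higher and Rbfox3 and Neurod6 called lower.

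The Fringe enzymes changed in opposite directions. Lfng (ENSMUSG00000029570.6), the Fringe gene of radial glia, gave 25.8 and 29.4 CPM in control and 40.2 and 43.7 CPM in Lhx2 cKO. Every Lhx2 cKO value was above every control value. The means of 27.6 ± 2.57 and 41.9 ± 2.44 CPM (SD, n = 2) correspond to a 1.52-fold rise (log2 fold change 0.60, SE 0.111, adjusted p 6.62e-05). Mfng (ENSMUSG00000018169.13), which in the cortex is found in intermediate progenitors and newborn neurons, gave 96.4 and 94.2 CPM in control and 62.5 and 67.0 CPM in Lhx2 cKO. Its controls agreed to within 2.34% of their mean and the Lhx2 cKO libraries to within 7.01%. The level of Mfng fell from 95.3 ± 1.58 to 64.8 ± 3.21 CPM (SD, n = 2), to 68.0% of control (log2 fold change -0.56, SE 0.0974, adjusted p 2.88e-05). The third Fringe gene, Rfng, had 157.6 and 159.4 CPM in control and 168.4 and 176.0 CPM in Lhx2 cKO, which is 0.12 higher on the log2 scale (interval -0.07 to 0.31, adjusted p 0.407).

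Other marker lists were summed in the same libraries in which Jag1 and Lfng rose. The 8 microglia genes, with 7 called higher, among them C1qb and C1qc, summed to 114 CPM in each control and 230 to 254 CPM in Lhx2 cKO. Oligodendrocyte precursor genes, with 5 of 6 called higher, among them Egfr and Olig1, summed to 46.8 to 53.6 CPM and 87.9 to 96.5 CPM. Cspg4, among these 5, was also counted with the pericyte genes above. For the cortical hem and Cajal-Retzius cells 5 of 7 were called higher, among them Reln, and Rspo3 lower, with sums of 335 to 359 CPM and 455 to 573 CPM. Most of that sum was Reln, with 261 and 287 CPM in control and 384 and 498 CPM in Lhx2 cKO. For ventral progenitors and interneurons 2 of 8, Sst and Gad2, were called higher and 6 were not called, with sums of 218 to 252 CPM and 289 to 299 CPM. Sst alone gave 43.0 and 41.7 CPM in control and 83.0 and 95.3 CPM in Lhx2 cKO. Their part in the rise of Lfng or Jag1 was not tested.

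Rbpj (ENSMUSG00000039191.13), through which all Notch receptors act on DNA, gave 64.4 and 71.1 CPM in control and 53.9 and 56.0 CPM in Lhx2 cKO. Both Lhx2 cKO libraries lay below the lower control. The log2 fold change of -0.30 (SE 0.1, adjusted p 0.0259) was the smallest among the called members. Rbpj was no longer called without control 2 (-0.23, adjusted p 0.208), without Lhx2 cKO 1 (-0.28, 0.125) or without Lhx2 cKO 2 (-0.33, 0.0725). The authors' deposited table gives the same 6 members an adjusted p under 0.05, with log2 fold changes of -0.73 for Notch1, -0.51 for Dll1, 0.70 for Jag1, 0.59 for Lfng, -0.57 for Mfng and -0.31 for Rbpj.

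**Figure D2:**
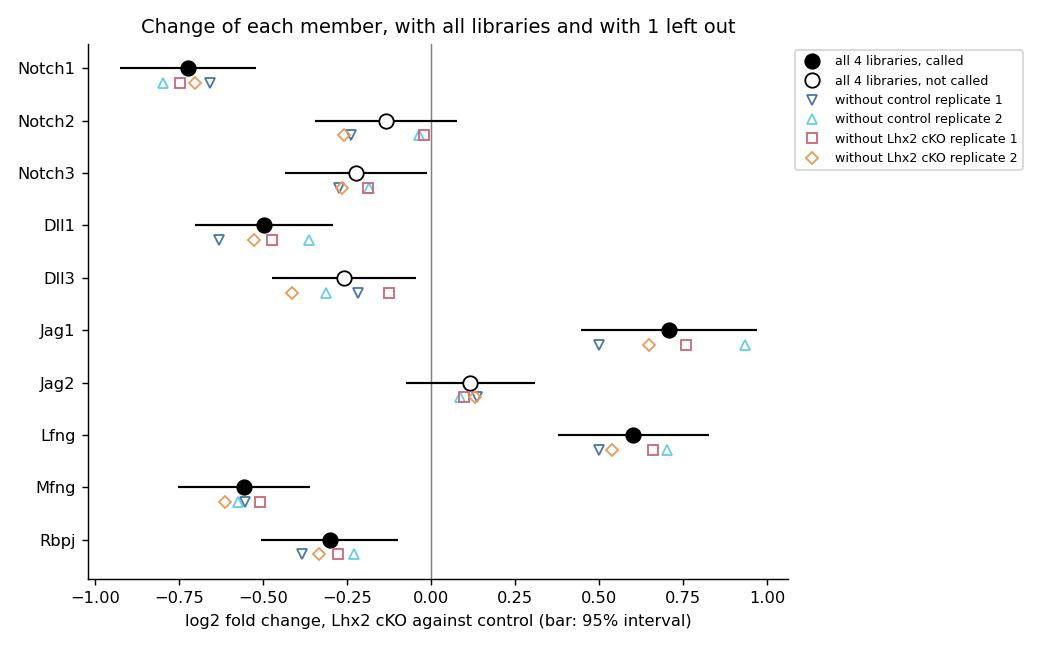
Log2 fold change of each member, Lhx2 cKO against control (horizontal axis), from all 4 libraries (circles, filled where called, bars give the 95% interval) and with 1 library left out (open symbols under each circle). Notch1, Dll1, Jag1, Lfng and Mfng kept their direction and their call in all 4 such fits, while Rbpj kept its call in 1 of them.

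Levels of different genes were compared per kilobase of gene length (CPM per kb). That length sums all annotated exons of a gene and is not the length of the transcripts expressed. The order and the ratios between genes therefore depend on it. In control Mfng was highest at 33.6 ± 0.557 CPM per kb (SD, n = 2) and Jag1 lowest at 3.29 ± 0.674, a 10.2-fold span. Between them came Dll1 at 20.1, Dll3 at 19.6, Jag2 at 14.3, Lfng at 11.03, Notch1 at 6.18, Notch3 at 5.51, Notch2 at 5.47 and Rbpj at 5.31 CPM per kb. The libraries of Dll1 and Dll3 overlapped, as did those of Notch3 and Notch2 and those of Notch2 and Rbpj, so these neighbours did not differ beyond their spread. In Lhx2 cKO Mfng was again highest, at 22.8 ± 1.13 CPM per kb, and the span was 6.10-fold. The means of Lfng, Dll3 and Jag2 followed at 16.7, 16.3 and 15.5, and the libraries of Dll3 overlapped with those of both Lfng and Jag2. Those of Notch2 overlapped with those of both Jag1 and Notch3. Notch1 came last at 3.74 ± 0.0884, below Rbpj at 4.31 CPM per kb. The mean of Notch1 thus ranked 6 of 10 in control, above the other 2 receptors, and 10 of 10 in Lhx2 cKO, below them.

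The same levels give the balance among the members of each role, as a description. Genes of a role that are not members, such as Notch4, Dll4 and Rfng, are left out of these sums. Summed over the 3 receptors, the level was 17.0 and 17.3 CPM per kb in control and 13.0 and 13.9 CPM per kb in Lhx2 cKO. Notch1 made up 38.3% and 33.8% of that sum in control and 29.3% and 26.5% in Lhx2 cKO. The ratio of Notch1 to Notch2 per kb was 1.27 and 1.01 in control against 0.831 and 0.683 in Lhx2 cKO. In control 2 the pair was nearly level, at 5.86 CPM per kb for Notch1 and 5.83 for Notch2. Per kb of summed exons, Notch1 was thus clearly the more abundant in control 1 only, and the less abundant in both Lhx2 cKO libraries. In CPM without length, Notch1 stood at 92.5 and 83.3 in control against 55.1 and 62.8 for Notch2. In Lhx2 cKO Notch1 stood at 54.1 and 52.4 CPM against 49.4 and 58.1 CPM for Notch2. The order of this pair thus depended on the length used.

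The ligands summed to 56.1 and 58.5 CPM per kb in control and 49.6 and 53.3 CPM per kb in Lhx2 cKO. Jag1 took 5.03% and 6.44% of the ligand sum in control and 10.4% in each Lhx2 cKO library. The ratio of the Delta-like pair to the Jagged pair was 2.21 and 2.29 in control against 1.37 and 1.55 in Lhx2 cKO. Dll1 stood at 6.51 and 5.80 times Jag1 in control and at 2.70 and 2.60 times Jag1 in Lhx2 cKO. In contrast, the ratio of Dll1 to Dll3 overlapped between the groups, at 0.904 and 1.16 in control against 0.949 and 0.808 in Lhx2 cKO.

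Within the Fringe pair of Lfng and Mfng the share of Lfng was 23.3% and 26.2% in control against 42.2% and 42.5% in Lhx2 cKO. The pair summed to 44.3 and 44.9 CPM per kb in control and 38.1 and 41.0 in Lhx2 cKO. Rfng, left out of that sum, was above it, at 63.3 and 64.1 CPM per kb in control and 67.7 and 70.7 in Lhx2 cKO. Mfng stood at 3.30 and 2.82 times Lfng in control and at 1.37 and 1.35 times Lfng in Lhx2 cKO. The replicates differed little in these ratios next to the gap between groups. With 2 libraries against 2 an exact two-sided permutation test cannot go below p = 0.333, so the 17 shares and ratios computed are given without a test.

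**Figure D3:**
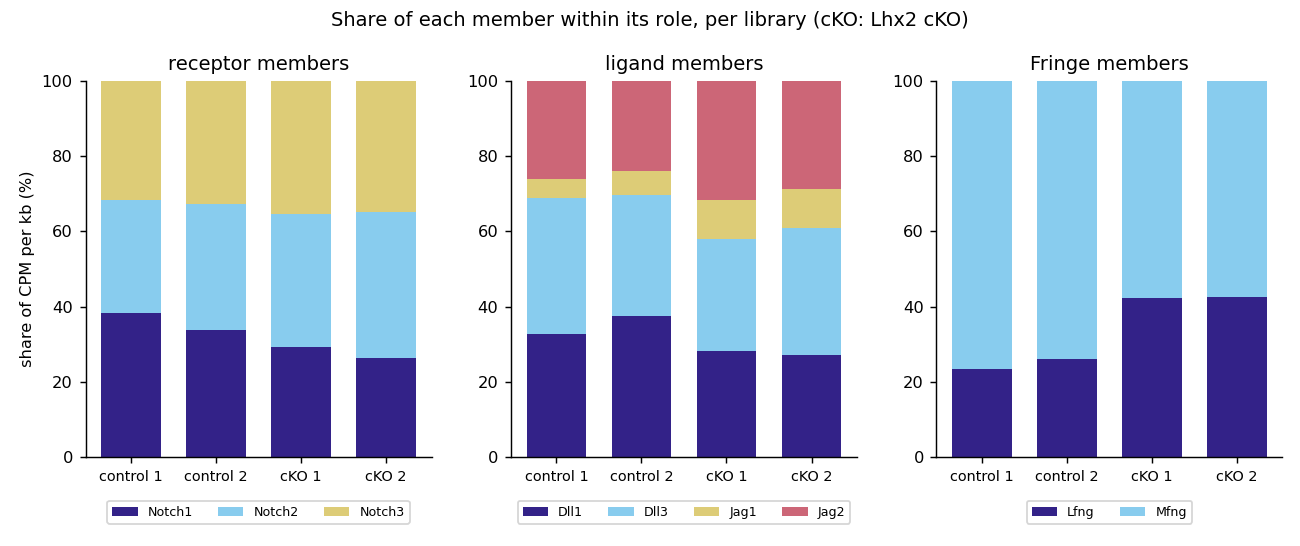
Share of each member in the summed CPM per kb of the members of its role (vertical axis, percent), one stacked bar per library, for receptors, ligands and Fringe enzymes. Notch4, Dll4 and Rfng are not included. Notch1 took 33.8% to 38.3% of the receptor bar in control and 26.5% to 29.3% in Lhx2 cKO, Jag1 took 10.4% of each ligand bar in Lhx2 cKO, and Lfng 42.2% and 42.5% of the Fringe bars there.

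Another 60 genes of the pathway were measured, in 8 lists by role. Of these, 8 were called higher, 13 lower and 39 were not called, which is 35% called against 20.8% of all genes, with a median log2 fold change of -0.04. The lists were written with earlier results of these data known, so these shares are a description only. Ligand ubiquitination and endocytosis, the step in which Mib1 and Neurl1a arm the ligand, had 0 of 6 genes called and a median of 0.01. Mib1 itself was at -0.24 (interval -0.44 to -0.04, adjusted p 0.0846) and Neurl1a at 0.20 (interval -0.21 to 0.60, adjusted p 0.551). Receptor glycosylation outside the members, which holds the O-fucosyltransferase Pofut1 on whose sugar the Fringe enzymes act, had 0 of 6 called and a median of 0.06. Pofut1 itself was at -0.25 (interval -0.45 to -0.05, adjusted p 0.0723). In receptor cleavage 2 of 9 were called, both higher, with a median of 0.18. They were Adam10, the protease of the first cut after ligand binding (log2 fold change 0.27, adjusted p 0.0497), and Aph1b, a subunit of gamma-secretase (0.40, adjusted p 0.00464).

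Other receptors and ligands had 3 of 5 called, all higher, with a median of 0.62. Dll4, a ligand of endothelial tip cells, gave 8.66 and 8.96 CPM in control and 11.4 and 16.5 CPM in Lhx2 cKO (log2 fold change 0.66, adjusted p 0.00468). The transmembrane proteins Dner and Dlk2, which carry EGF-like repeats but differ from the canonical ligands, were at 0.68 and 0.62 with adjusted p of 3.41e-06 and 1.30e-05. Notch4, the receptor of endothelial cells, gave 22.6 and 22.4 CPM in control and 21.3 and 23.8 CPM in Lhx2 cKO, a log2 fold change of 0.004 (interval -0.25 to 0.26), while endothelial genes were higher as given above.

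Among nuclear coactivators and corepressors 6 of 13 were called, all lower, with a median of -0.30. Spen, a corepressor that holds Rbpj silent without Notch, was at -0.45 (adjusted p 0.00104). The acetyltransferases Ep300 and Kat2b, which serve the active complex, were at -0.36 (0.00521) and -0.47 (0.00934). The control libraries differed for Spen, with 237.5 and 185.9 CPM, and both lay above the 150.6 and 158.9 CPM of the Lhx2 cKO libraries.

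The inhibitors and turnover list was split, with 3 of 11 called higher and 3 lower and a median of -0.17. Nrarp, a feedback inhibitor that is itself switched on by Notch, fell from 8.54 and 7.04 CPM in control to 4.31 and 3.05 CPM in Lhx2 cKO (log2 fold change -1.08, SE 0.234, adjusted p 0.00058). An antisense gene, Gm38287, covers 79.4% of the exons of Nrarp, which makes its count uncertain. Numbl, an inhibitor of Notch inherited by daughter cells, was at -0.50 (adjusted p 0.00014), while Bend6, a neuronal antagonist of Rbpj, was at 0.46 (0.00171) and the ubiquitin ligase Dtx4 at 0.39 (0.0183). The other calls in that list were Fbxw7 at 0.27 and Dtx1 at -0.28.

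Among the targets 1 of 6 was called. Hey1, a repressor switched on by Rbpj, gave 11.4 and 12.3 CPM in control and 7.74 and 7.70 CPM in Lhx2 cKO (log2 fold change -0.62, SE 0.175, adjusted p 0.00873). Hes1 and Hes5, the effectors most used in radial glia, had few counts here, 126 to 179 and 88 to 122 per library. Hes1 was at 7.38 and 6.72 CPM in control and 5.54 and 6.05 CPM in Lhx2 cKO, with a log2 fold change of -0.28 (interval -0.71 to 0.14, adjusted p 0.374). Hes5 was at 3.63 and 4.001 CPM against 5.36 and 5.18 CPM, with a log2 fold change of 0.47 (interval -0.04 to 0.97, adjusted p 0.198), and 31.8% of its exons are shared with Gm20421 on the opposite strand.

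Of the 4 proneural factors, which switch on Dll1 in differentiating cells, 3 were called lower. The same 3, Neurog1, Neurog2 and Insm1, are among the 5 intermediate progenitor genes called lower above. Neurog2 was at 118.3 and 116.5 CPM in control and 87.2 and 86.9 CPM in Lhx2 cKO (log2 fold change -0.43, adjusted p 0.000706), and Insm1 was at -0.51 (0.000101). Neurog1 had 107 and 130 counts in control and 24 and 18 in Lhx2 cKO (log2 fold change -2.38, SE 0.348, adjusted p 1.27e-06).

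**Figure D4:**
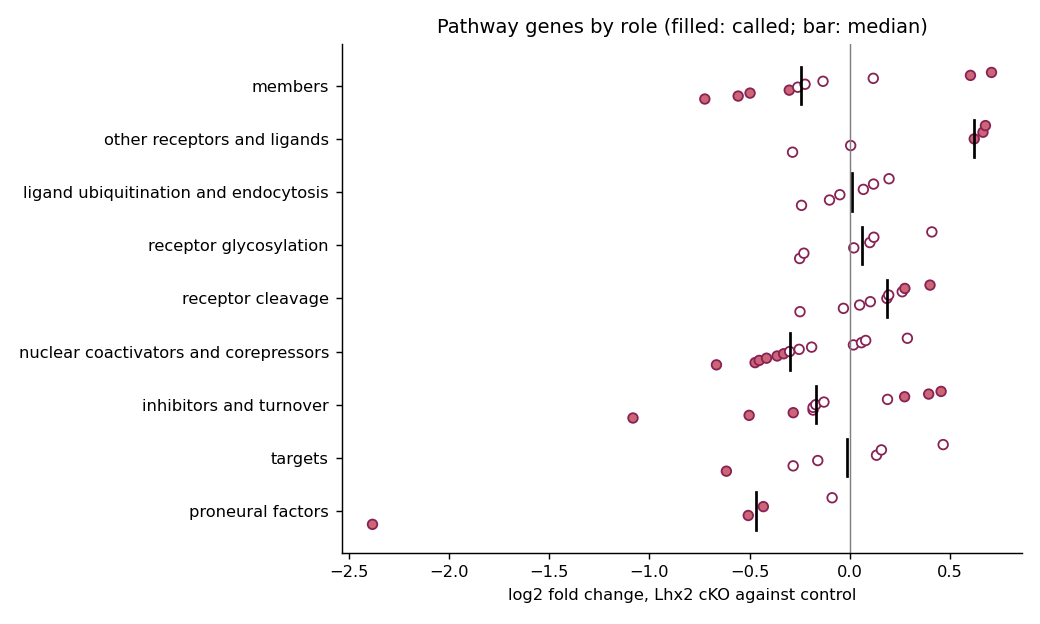
Log2 fold change (horizontal axis, Lhx2 cKO against control) of the 10 members and of the 60 other pathway genes by role. Each circle is a gene, filled where called, and the bar is the median of the list. The called nuclear cofactors were all lower, the called other receptors and ligands all higher, and the members fell on both sides of 0.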

How the data were processed

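The authors deposited 1 table of raw read counts per gene for the 4 RNA-seq libraries of polyadenylated RNA. Per the submitters' processing notes, Trim Galore, Subread, featureCounts, edgeR and the build mm39 were used; their versions, the annotation and the use of strand are not given in the sources used here. The deposited gene length in bases, another column of the authors' table, equals the summed exons of GENCODE M21 for all 10 members. The authors' log2 fold change and adjusted p-value were copied from the deposited columns.

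Groups and replicate numbers were taken from the titles. Counts were tested with edgeR 4.0.16 (R 4.3.3) by TMM scaling, filterByExpr (minimum 10), glmQLFit and glmQLFTest, two-sided, without covariates, over 13288 genes with Benjamini-Hochberg adjustment; a gene is called at an adjusted p under 0.05. The fit shares the spread across genes (median prior degrees of freedom 38.7). The p-value, standard error and interval of a gene thus rest mostly on other genes, and little on its own replicates. Standard errors were derived from F, as the size of the log2 fold change over its square root. CPM are scaled with TMM (factors 0.973 to 1.02). The procedure was checked on simulated counts. The libraries of a group were not copies of each other (13.9 and 14.3 for chi-square over its degrees of freedom), so each counted as 1 sample. The floor of 3 counts covers counting error only.

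Alternatives were RLE factors, library totals, no filter, a mean count of at least 50, a replicate block, DESeq2 1.42.0, limma-voom 3.58.1 and each library left out. All members were named, then up to 4 called genes per pathway list and up to 3 per marker list by smallest p, plus Notch4, Rfng, Hes1 and Hes5 as partners of members; some genes that this rule names are not reported here. Members and lists were chosen with earlier results of these data known. Gxylt2 and 7 listed marker genes were not analysed here.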

Additional observations from a re-analysis of the deposited data

How the results depend on the processing

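With all libraries kept, the same 6 members were called, 2 higher and 4 lower, under each of the 7 alternatives of scaling, filter, block and test. Dll3, Notch2, Notch3 and Jag2 were called under none of them. The filter alternatives could do little here. No filter tested 13289 genes against 13288, and with at least 398 counts in each library no member could be dropped by the stricter filter. A replicate block gave 2874 calls, 2736 of which the unblocked fit also made. The differences of replicate 1 from 2 in the groups had a correlation of -0.0052 over genes. That value cannot tell whether samples with the same number shared a litter or batch, which the labels do not give. DESeq2 gave the fewest calls, 2170, and an adjusted p of 0.047 for Rbpj. Scaling by library totals moved no member's level by more than 2.70%.

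Leaving out 1 library leaves a lone library, assumed to vary like the other group. Genes called ranged from 1633 (without Lhx2 cKO 2) to 2396, against 2758; without control 1 there were 1790. Those called higher ranged from 865 to 1395 and those called lower from 768 to 1079. Fewer samples were tested by construction. The members called ranged from 5 to 6 and those called lower from 3 to 4; without Lhx2 cKO 2 Rbpj lost its call and Dll3 gained one.

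Medians of the pathway lists ranged as follows over the fits with 1 library left out. They were other receptors and ligands 0.366 to 0.664, receptor glycosylation -0.086 to 0.165, receptor cleavage 0.088 to 0.289, nuclear coactivators and corepressors -0.410 to -0.222, inhibitors and turnover -0.231 to -0.102, targets -0.178 to 0.022 and proneural factors -0.504 to -0.440. The cause was not tested. Hes1 and Hes5 had only 88 to 179 counts per library, which widens their intervals.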
